A study of Oryctolagus cuniculus with 34 samples.

Results

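The unoperated right supraspinatus of 17 rabbits is described here as 2 series of libraries, which are told apart by the start of their titles. Of 34 libraries in the series, 17 are controls from the right shoulder. Of these, 8 have titles that start with WRR and 9 have titles that start with X. All control libraries were used, and no measured value entered their choice.

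The study took muscle from female New Zealand White rabbits of about 6 months. In each animal the tendon of the left supraspinatus was cut, left detached for 8 weeks and then repaired, and both shoulders were sampled 1, 2, 4 or 8 weeks after repair. The methods call the right shoulder unoperated, whereas the labels describe a sham with a skin cut. The pieces came from the center of the posterior lateral region of the muscle, and each rabbit is 1 replicate.

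The WRR controls are 4 rabbits sampled 1 week (time code 81) and 4 rabbits sampled 8 weeks after repair of the other shoulder (time code 88). The X controls are 5 rabbits sampled at 2 weeks (82) and 4 rabbits sampled at 4 weeks (84). The time codes were read as 8 weeks of tenotomy followed by the weeks after repair. No time point has animals in both series, so the series, the animals and the time after repair cannot be told apart, and the 17 rabbits carry different numbers. All of these animals had undergone the same pair of operations on the left shoulder, so none is an untouched animal. What the prefixes stand for is not given in the sources used here.

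Skeletal muscle is built of long fibers, but a piece of whole muscle also holds the cells between them. Fibro-adipogenic progenitors and fibroblasts make the collagen-rich matrix around the fibers, resident macrophages clear debris, and capillaries, nerve branches and fat cells run through it. The fibers themselves hold contractile proteins, mitochondria and proteasomes, which degrade proteins marked with ubiquitin. In bulk RNA, fewer cells of a type and less RNA per cell cannot be told apart.

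Expected counts summed to 15359593 to 28395188 in the WRR controls and 9859418 to 11092142 in the X controls, with no overlap. The difference of the means was larger than in any other division of the 17 libraries (exact two-sided permutation test, p = 4.11e-05, the smallest that 24310 divisions can give; adjusted p = 0.000123 over 3 library-level values). Genes with more than 1 CPM, a count scaled to the total of its library, numbered 10520 ± 129 in WRR (SD, n = 8) and 10281 ± 165 in X (SD, n = 9; exact permutation test, adjusted p = 0.00506). The 10 most counted genes took 29.3% ± 1.27 of the counts in WRR and 26.7% ± 2.21 in X (exact permutation test, adjusted p = 0.0157). After the WRR libraries were thinned to 10467247 counts, the mean number of genes over 1 CPM was 10494 in WRR, and 3178 genes were then called between the series in the test described next, against 3472 without thinning. The first principal component of log2 CPM held 25% of the variance and parted the series, from -39.8 to -16.7 in WRR and from 18.5 to 34.4 in X. The next held 18.1%, and on it the control of rabbit 66 (X, 4 weeks) lay at -75.9 and that of rabbit 59 (X, 2 weeks) at 41.3. The biological coefficient of variation, edgeR's measure of spread between animals beyond counting, was 0.185 within WRR and 0.267 within X, or 0.242 in X without rabbit 66. No pair of controls was a duplicate (highest r of log2 CPM 0.982).

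Unoperated muscle differed widely between the series. Of 10804 genes with more than 1 CPM in at least 5 of the 17 controls, 3472 (32.1%) differed at an adjusted p under 0.05 in limma-voom with Benjamini-Hochberg adjustment, and such genes are referred to as called. Higher in WRR were 1777 genes (16.4%) and higher in X 1695 (15.7%). This split depends on the filter, which a gene can pass through the series where it is high. Of the genes tested, 10282 had more than 1 CPM in at least 5 X libraries, so that X alone would have carried them. Of these, 1583 were called higher in WRR and 1694 higher in X. Most differences were small: 88.6% of the called genes had an absolute log2 fold change (log2FC, WRR minus X) of at most 1, and the median absolute log2FC of called genes was 0.49. A gene is termed DE where it was also beyond 1 on the log2 scale, as 338 genes (3.13%) were in WRR and 57 (0.528%) in X. The CPM of the 8 and the 9 libraries did not overlap for 550 genes (5.09%), of which 277 were higher in WRR and 273 higher in X. The number of DE genes higher in X was 108 without the control of rabbit 66, and it was 86 in edgeR and 93 in DESeq2. With all 33 libraries of both shoulders in 1 fit, 2155 genes were called. With no filter on low counts the direction of the DE genes turned, with 602 higher in WRR and 662 higher in X among 16844 genes tested.

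Within each series the time points could be compared without crossing from one series to the other. At 8 weeks against 1 week in WRR, limma-voom called 0 genes (0%) in unoperated muscle. There, 663 genes had an unadjusted p under 0.05, edgeR called 0 and DESeq2 13. At 4 weeks against 2 weeks in X, limma-voom also called 0 genes (0%), with 845 genes at an unadjusted p under 0.05, 0 called in edgeR and 18 in DESeq2. Each pair of time points across the series gave called genes. At 1 week (WRR) against 2 weeks (X) there were 1771 (16.4%), and at 1 week against 4 weeks 598 (5.53%). At 8 weeks (WRR) against 2 weeks (X) there were 2689 (24.9%), and at 8 weeks against 4 weeks 1513 (14%). These 4 comparisons share libraries with each other and with the comparison of all 17. The WRR times of 1 and 8 weeks lie on either side of the X times of 2 and 4 weeks.

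**Figure D1:**
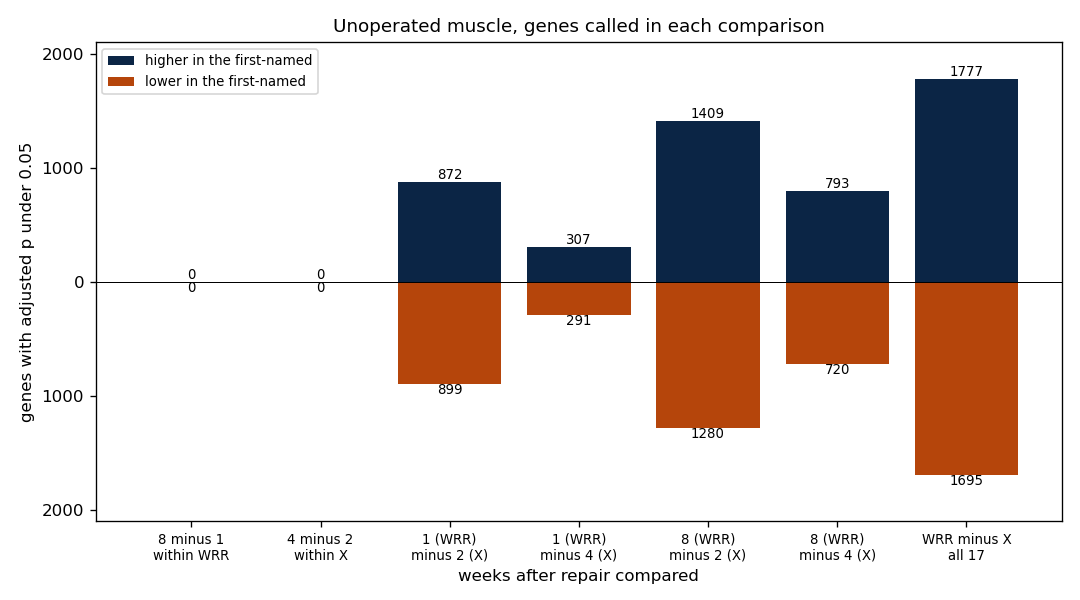
Genes with an adjusted p under 0.05 (y axis, number of genes) in unoperated muscle for 7 comparisons (x axis, weeks after repair); bars above 0 count genes higher in the first-named group and bars below 0 genes lower in it. The 2 comparisons within a series hold 0 genes, and the 4 across the series hold 598 to 2689.

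The direction of the calls followed the level of the gene. The genes were parted into 4 bins by average log2 CPM. In the lowest bin, 18.8% of 2703 genes were called higher in WRR and 5.44% higher in X. In the highest bin of 2701 genes these shares were 12.4% and 24.7%. The DE genes higher in WRR were mostly weakly expressed, with 231 of 338 in the lowest bin, a count that depends on the filter on low counts. The depth of the libraries moved with the series as well, and after thinning the DE genes numbered 343 higher in WRR and 58 higher in X. Symbols of human orthologs were at hand for 3064 of the genes tested, and among these 777 (25.4%) were called higher in WRR and 502 (16.4%) higher in X. These shares are the background for the gene lists, whose members all have symbols.

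**Figure D2:**
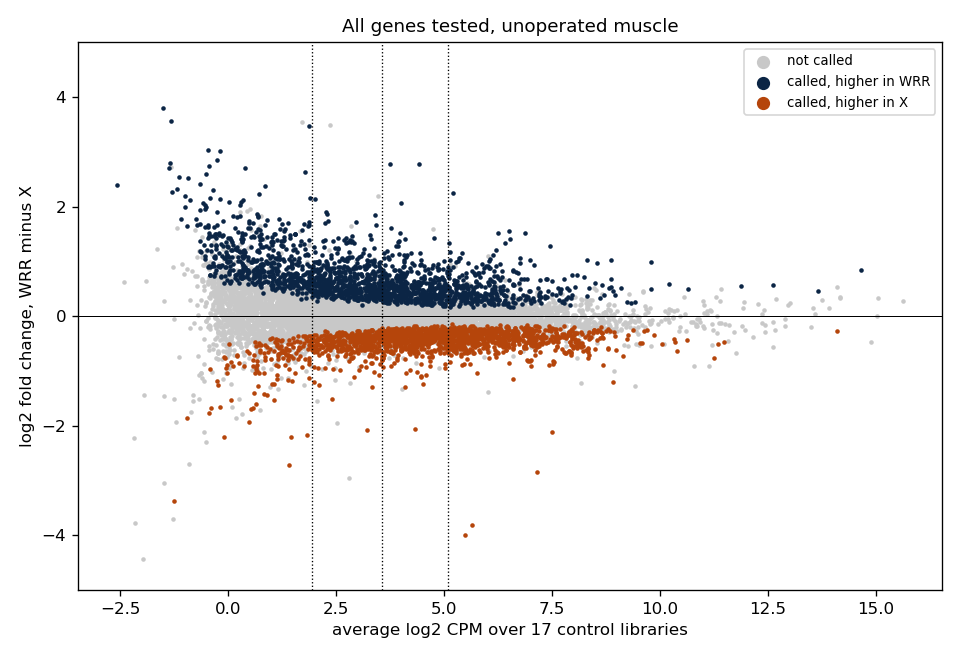
Log2FC (WRR minus X, y axis) against average log2 CPM over the 17 controls (x axis) for all genes tested, with 5 genes beyond the y axis; colors mark called genes and dotted lines part the 4 bins of expression. Called genes higher in WRR are spread toward low expression, while those higher in X lie mostly within 1 of zero at higher expression.

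Among the genes that have a symbol, average 1 or more on the log2 CPM scale and do not overlap, 47 DE genes were higher in WRR and 0 higher in X. Lack of overlap by itself was even over all genes tested, with 277 genes higher in WRR and 273 higher in X. Of the genes with a symbol, 189 were DE and higher in WRR and 6 were DE and higher in X. The 10 largest differences among the 47 were those of MMRN1, DDR2, MRC1, CNTN1, DPT, an SCD identifier, CHRDL1, EMP1, ATRNL1 and COL12A1. They include matrix proteins, a collagen receptor, a macrophage receptor and adhesion proteins of nerve.

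MMRN1 (ENSOCUG00000006098), which encodes multimerin, a protein of platelets and endothelium, lay at 4.05 to 17.4 CPM (median 10.9) in the 8 WRR libraries and at 0.594 to 3.62 CPM (median 1.51) in the 9 X libraries. The WRR rabbits 1 and 2 gave the low values of that series, and the lowest still stood above rabbit 63, the highest of X (log2FC 2.64, SE 0.51, adjusted p = 0.00103). DDR2 (ENSOCUG00000011443), a receptor tyrosine kinase that binds fibrillar collagen, ran from 5.84 to 14.4 CPM (median 8.53) in WRR and from 0.625 to 4.07 CPM (median 2.01) in X. Its WRR values were all higher, as the choice of these genes required, and rabbit 66 held the lowest value of X (log2FC 2.15, SE 0.24, adjusted p = 2.87e-05). MRC1 (ENSOCUG00000003247), the macrophage mannose receptor, spanned 4.88 to 16.8 CPM (median 9.702) in WRR against 0.906 to 4.78 CPM (median 2.74) in X. The gap between the series was narrow, from 4.78 CPM in rabbit 59 to 4.88 CPM in rabbit 5 (log2FC 1.91, SE 0.30, adjusted p = 0.000204). In the fit of all 33 libraries MRC1 was no longer called (log2FC 1.75 to 2.10, adjusted p 7.73e-11 to 0.133 over 30 alternatives).

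CNTN1 (ENSOCUG00000009395), a contactin that serves adhesion of nerve cells, was found at 6.55 to 16.7 CPM (median 9.46) in WRR and at 1.64 to 3.599 CPM (median 2.61) in X (log2FC 1.87, SE 0.25, adjusted p = 7.62e-05). DPT (ENSOCUG00000005174), dermatopontin, a matrix protein that binds decorin and collagen, measured 15.1 to 33.1 CPM (median 19.8) in WRR and 2.501 to 11.9 CPM (median 5.94) in X (log2FC 1.85, SE 0.22, adjusted p = 3.27e-05). For CHRDL1 (ENSOCUG00000006145), a secreted antagonist of bone morphogenetic proteins, the values were 10.5 to 21.03 CPM (median 14.6) in WRR and 1.46 to 6.31 CPM (median 4.83) in X (log2FC 1.71, SE 0.20, adjusted p = 3.02e-05). These genes were chosen for not overlapping between the series, so their separation is no separate result. Rabbit 66 gave the lowest CHRDL1 value by a wide margin.

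EMP1 (ENSOCUG00000022231), a membrane protein, COL12A1 (ENSOCUG00000015320), a collagen that sits on the surface of fibrils, and ATRNL1 (ENSOCUG00000005958) completed the list. EMP1 lay at 6.55 to 18.1 CPM (median 8.61) in WRR and at 1.59 to 4.01 CPM (median 2.397) in X (log2FC 1.71, SE 0.23, adjusted p = 7.02e-05). COL12A1 was measured at 14.1 to 69.6 CPM (median 21.9) in WRR and 4.07 to 12.6 CPM (median 8.69) in X (log2FC 1.61, SE 0.27, adjusted p = 0.000393). The highest value of each of these genes was in rabbit 4, at 18.1 and 69.6 CPM. ATRNL1 ran from 2.76 to 7.67 CPM (median 3.92) in WRR and 0.5704 to 2.08 CPM (median 1.55) in X (log2FC 1.69, SE 0.30, adjusted p = 0.000557). In the 33-library fit 6 of the 10 genes were still called, and MRC1, CNTN1, ATRNL1 and COL12A1 were not.

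**Figure D3:**
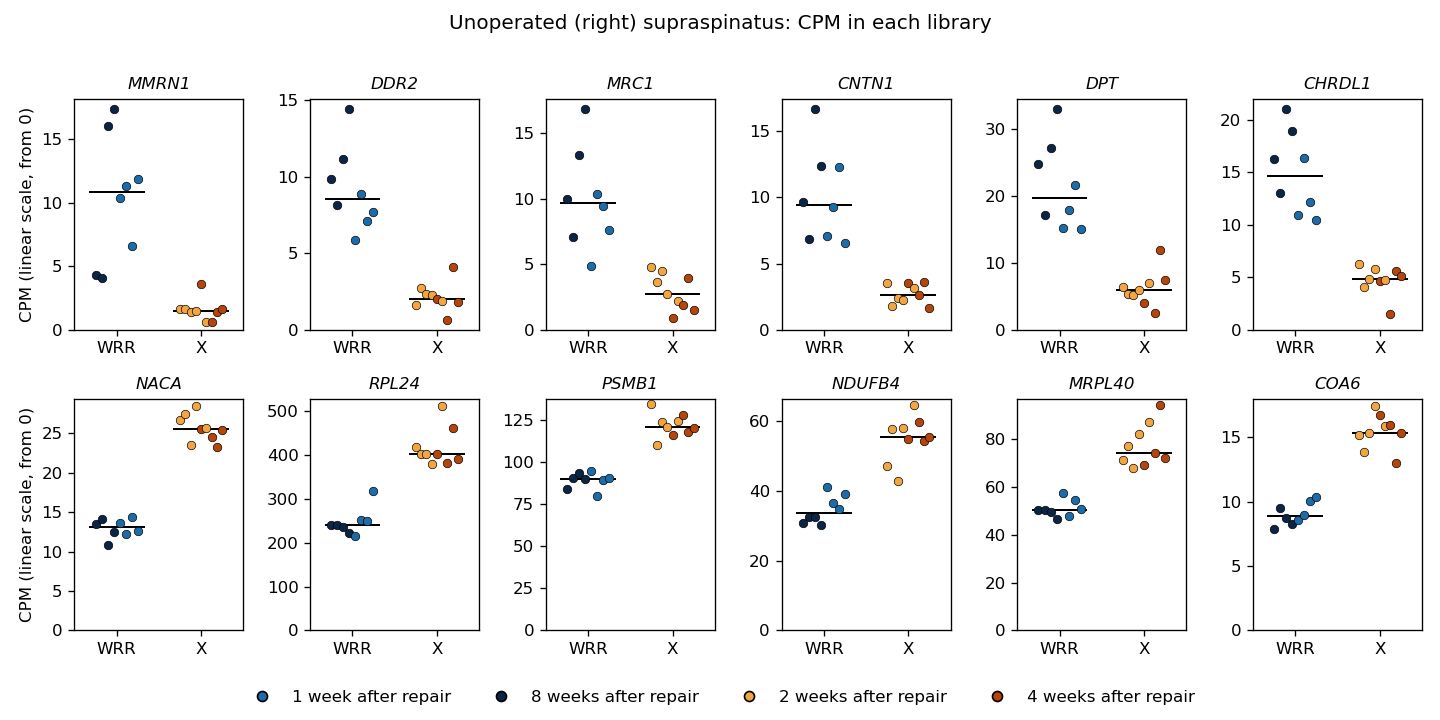
CPM (y axis, linear from 0) of 12 genes in each of the 17 control libraries by series, colored by weeks after repair of the other shoulder; lines are medians. In the upper row all WRR values exceed all X values and in the lower row all X values exceed all WRR values. The genes of the upper row were chosen for not overlapping. Those of the lower row were picked with their values known, so the separation in either row is no separate result.

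Genes of the connective tissue were higher in WRR as a group. Of 28 fibrillar collagen and matrix genes tested, 22 were higher in WRR, 0 were higher in X and 6 were not called, with a median log2FC of 1.08 against 0.00 over all genes tested and 0.09 over those with a symbol. FBN1, the fibrillin of microfibrils, measured 93.1 to 254 CPM (median 164) in WRR and 40.3 to 88.3 CPM (median 55.3) in X (log2FC 1.41, SE 0.16, adjusted p = 3.02e-05). FN1, fibronectin, lay at 146 to 302 CPM (median 186) and 37.4 to 121 CPM (median 76.2) in the same order (log2FC 1.52, SE 0.22, adjusted p = 0.000113). Both genes showed no overlap, and in FN1 the 4 WRR rabbits of 8 weeks stood above the 4 of 1 week, although the difference between these times was not called (log2FC 0.76, adjusted p = 0.7796). FBLN2, fibulin 2, was higher as well (log2FC 1.12, adjusted p = 6.74e-05), as were COL1A1 (log2FC 1.55, adjusted p = 0.000223) and COL1A2 (log2FC 1.28, adjusted p = 0.000399), the chains of type I collagen.

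COL3A1, the type III collagen chain and one of the most counted DE genes, spanned 456 to 1496 CPM (median 602) in WRR and 182 to 523 CPM (median 351) in X (log2FC 1.02, SE 0.21, adjusted p = 0.00195). Rabbit 59 of X lay above rabbits 5 and 8 of WRR, and rabbit 3 held the highest value. The summed level of the 28 matrix genes ranged from 2197 to 4850 CPM in WRR and 1071 to 2072 CPM in X, without overlap. Basement membrane genes differed in the same direction, with 6 of 10 higher in WRR and 0 higher in X (median log2FC 0.59). Their summed level overlapped, at 591.5 to 1019 CPM in WRR and 392.8 to 758.8 CPM in X. Within WRR the sum was 915.4 to 1019 CPM in the 4 rabbits of 8 weeks and 591.5 to 774.9 CPM in the 4 of 1 week. NID1 (ENSOCUG00000016007), nidogen 1, which links laminin to type IV collagen, lay at 17.1 to 34.3 CPM (median 25.4) in WRR and 9.31 to 15.6 CPM (median 10.8) in X (log2FC 1.03, SE 0.13, adjusted p = 4.53e-05). LAMA2, the laminin chain of the fiber surface (log2FC 0.89, adjusted p = 0.000219), HSPG2, perlecan (log2FC 0.75, adjusted p = 0.000596), and COL15A1 (log2FC 0.68, adjusted p = 0.00136) were also called, whereas the type IV chains COL4A1 (log2FC 0.16, adjusted p = 0.444), COL4A3 (log2FC 0.01, adjusted p = 0.974) and COL4A5 (log2FC 0.26, adjusted p = 0.194) were not. Without rabbits 4 and 66, 20 matrix genes were called higher in WRR.

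The markers of fibro-adipogenic and fibroblast cells went the same way, with 10 of 11 higher in WRR (median log2FC 1.04). X libraries alone would have carried 10 of the 11 past the filter, of which 9 were higher in WRR. Of the markers, 4 are also on the matrix list. PDGFRA, the receptor by which fibro-adipogenic progenitors are recognised, lay at 15.6 to 30.9 CPM (median 28.1) in WRR and 6.94 to 16.3 CPM (median 9.75) in X. Only rabbit 8 of WRR, the lowest, fell below the highest X value, that of rabbit 67 (log2FC 1.38, SE 0.16, adjusted p = 2.87e-05). THY1, a surface protein of fibroblasts, lay at 8.74 to 28.9 CPM (median 11.2) in WRR and 3.22 to 8.15 CPM (median 4.56) in X without overlap (log2FC 1.47, SE 0.22, adjusted p = 0.000187). DCN, decorin, a proteoglycan that coats collagen fibrils, was without overlap too, at 346 to 649 CPM (median 429) in WRR and 150.3 to 299 CPM (median 238) in X (log2FC 1.04, SE 0.15, adjusted p = 0.000117). The summed level of the 11 markers was 1016 to 2603 CPM in WRR and 476 to 989.8 CPM in X. In the fit of all 33 libraries the calls fell to 4 of 28 matrix genes and 4 of 11 fibroblast markers, all higher in WRR. The biological coefficient of variation was 0.229 over the controls and 0.359 over the repaired libraries that such a fit adds.

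Macrophage markers were weakly expressed, and most of those tested passed the filter on low counts with the help of the WRR libraries. Of 14 markers 11 passed, and 5 of these had more than 1 CPM in at least 5 X libraries, so that X alone would have carried them; all 5 were higher in WRR. Over the 11, 10 were higher in WRR, 0 were higher in X and 1, ITGAM, was not called (median log2FC 1.47), but a gene that passed through the series where it was high had to differ, and these counts are given as a description. CSF1R, the receptor for the macrophage growth factor, measured 3.75 to 14.1 CPM (median 8.64) in WRR and 0.521 to 4.01 CPM (median 2.02) in X (log2FC 2.16, SE 0.32, adjusted p = 0.000145). The ranges touched only between rabbit 5 of WRR and rabbit 67 of X. MPEG1, perforin-2, spanned 0.844 to 4.46 CPM (median 2.29) in WRR and 0 to 0.6601 CPM (median 0.285) in X, where 1 library was at 0. It passed the filter through the WRR libraries alone, so no fold or test is given. VSIG4, a complement receptor of resident macrophages, reached at most 0.956 CPM in X, below 1, against a median of 2.1 CPM in WRR. CD163, the scavenger receptor for hemoglobin, was called (log2FC 2.04, adjusted p = 0.00351). The summed level of the markers was 23.97 to 74.2 CPM in WRR and 9.48 to 26.2 CPM in X, with an overlap between rabbit 5 (24.0 CPM) and rabbit 67 (26.2 CPM). C5AR1 was under the filter and at 0 in 2 libraries, and TLR2 was at 0 in 1. In the fit of all 33 libraries 0 of 11 markers were called in limma-voom (4 at an unadjusted p under 0.05), whereas with the controls alone edgeR called 9 and DESeq2 10, and 8 were called without rabbit 66.

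Lymphocyte and pan-leukocyte markers were measured for 8 of 11 genes, of which 4 were higher in WRR (median log2FC 0.62). X libraries alone would have carried 4 of the 8 past the filter, of which 3 were higher in WRR, and in the fit of all 33 libraries 0 of the 8 were called in limma-voom (1 at an unadjusted p under 0.05). LCP1, an actin-bundling protein of white blood cells, lay at 2.596 to 5.26 CPM (median 3.77) in WRR and 0.313 to 1.71 CPM (median 0.666) in X. With a median under 1 CPM in X, LCP1 passed the filter only with the help of WRR libraries, so no fold or test is given. The 3 called genes that X alone would have carried were CD53 (log2FC 1.59, adjusted p = 0.0123), NCKAP1L (log2FC 0.42, adjusted p = 0.01495) and CD48 (log2FC 0.71, adjusted p = 0.01703). Of the T cell genes, TRBC1 was under the filter, at no more than 0.564 CPM, and CD96 was not called (log2FC -0.33, adjusted p = 0.299). The summed level of the list was 14.4 to 25.8 CPM in WRR and 10.9 to 17.7 CPM in X.

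Nerve and Schwann cell markers were higher in WRR for 5 of 6 genes tested (median log2FC 1.09), among them CADM3 (log2FC 1.27, adjusted p = 0.00115), LGI4 and NTRK2, the receptor for brain-derived neurotrophic factor, beside CNTN1. NTRK2 reached at most 0.693 CPM in X and passed the filter through WRR alone. LGI4 fell under the filter without rabbit 4 of WRR, so it passed only with the help of WRR libraries and no fold or test is given. It was tested in 23 of 30 alternatives and lost its call in 4 of these. Of the 3 genes that X alone would have carried past the filter, 2 were higher in WRR, and in the fit of all 33 libraries 1 of 6 was called. Without rabbit 4 only 4 of the genes passed the filter and 2 were called, and the summed level of the list was 18.1 to 37.6 CPM in WRR and 6.22 to 14.7 CPM in X. Of 15 endothelial markers 4 were higher in WRR (median log2FC 0.29), a share near the 25.4% of all genes with a symbol. VWF, von Willebrand factor (log2FC 0.60, adjusted p = 0.0003199), TEK, the angiopoietin receptor (log2FC 0.57, adjusted p = 0.00211), EPAS1 (log2FC 0.41, adjusted p = 0.000979) and NOS3 (log2FC 0.42, adjusted p = 0.0318) were called, while CDH5, the cadherin of endothelial junctions, was not (log2FC 0.19, adjusted p = 0.204). In the fits of all 33 libraries, without and with a correlation within rabbit, 3 and 2 of the 15 were called and VWF was not, and NOS3 lost its call in 10 of 30 alternatives. The summed level was 449.8 to 571 CPM in WRR and 348 to 507 CPM in X.

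Of 11 smooth muscle and pericyte markers 5 were higher in WRR and 1, RERGL, higher in X (median log2FC 0.41). ACTA2, smooth muscle actin (log2FC 0.62, adjusted p = 0.0102), RGS5, a pericyte gene (log2FC 0.56, adjusted p = 0.00261), and PDGFRB (log2FC 0.53, adjusted p = 0.00321) were among the former, and the summed level was 237 to 352 CPM in WRR and 195 to 275 CPM in X. In the fit of all 33 libraries 1 of these markers was called, higher in WRR, and with a correlation within rabbit 0 were called in limma-voom (5 at an unadjusted p under 0.05). Adipocyte markers were higher in WRR for 5 of 8 genes (median log2FC 0.78). X libraries alone would have carried 7 of the 8 past the filter, of which 4 were higher in WRR. CD36 (log2FC -0.28, adjusted p = 0.0886), PLAAT3 (log2FC -0.11, adjusted p = 0.607) and LIPE (log2FC 0.19, adjusted p = 0.595) were not called. In DESeq2, and without rabbit 66, 1 of the 8 was called higher in X. ADIPOQ, adiponectin, lay at 106 to 209.8 CPM (median 172) in WRR and 63.5 to 154 CPM (median 91.3) in X. These ranges overlapped (log2FC 0.69, SE 0.17, adjusted p = 0.00681), as did the summed level of 312 to 530 CPM in WRR and 250 to 394 CPM in X. In the fits of all 33 libraries 2 of the 8 were called and ADIPOQ was not. Erythroid markers gave 2 of 4 (XK, log2FC 0.91, adjusted p = 8.60e-05, and SPTB, log2FC 0.35, adjusted p = 0.009804), at a summed 219.5 to 412 CPM in WRR and 176 to 254 CPM in X, and 1 of 4 in the fit of all 33 libraries. The other members, HBQ1 and RHD, were not called in limma-voom. Within WRR the summed erythroid level was 219.5 to 256 CPM in the 4 rabbits of 8 weeks and 290.1 to 412.1 CPM in the 4 of 1 week. Tendon and cartilage markers gave 2 of 5 (KERA, log2FC 1.71, adjusted p = 0.00988, and THBS4, log2FC 0.85, adjusted p = 0.0462). The summed tendon level was 50.7 to 268 CPM in WRR and 38.9 to 106 CPM in X, and rabbit 4 alone supplied the 267.6 CPM, the next in WRR being 113 CPM. Without rabbit 4 or without rabbit 66, 1 of these genes was called, and in the fit of all 33 libraries 0 were called in limma-voom (0 at an unadjusted p under 0.05). THBS4 lost its call in 16 of 30 alternatives. What share of the series difference goes with the make-up of the pieces was not tested.

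**Figure D4:**
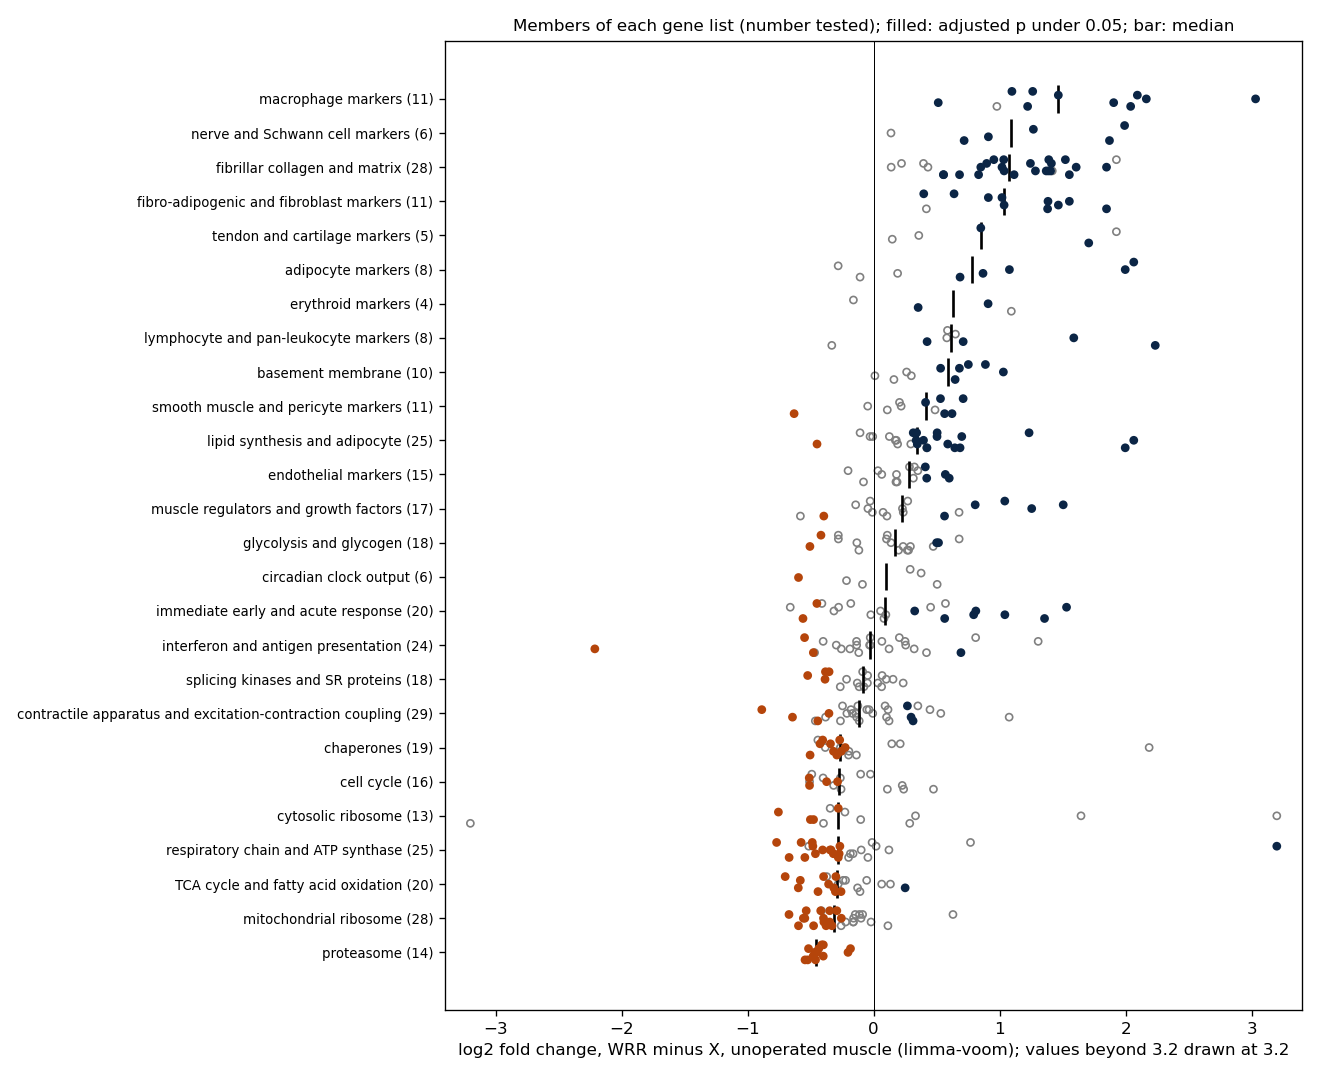
Log2FC (WRR minus X, x axis) of each tested member of 26 gene lists (y axis, number tested in brackets) in unoperated muscle; filled points are called, open points are not, and black bars are medians. Macrophage, nerve, matrix and fibroblast lists lie to the right, and proteasome, mitochondrial ribosome, oxidation and respiratory chain lists to the left.

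Genes of lipid synthesis were also higher in WRR, with 15 of 25 called higher, 1 called lower and a median log2FC of 0.35. X libraries alone would have carried 24 of the 25 past the filter, of which 14 were higher in WRR and 1 higher in X. SCD, stearoyl-CoA desaturase, carries the symbol of 2 identifiers. ENSOCUG00000001375 lay at 17.2 to 61.8 CPM (median 39.2) in WRR and 3.44 to 26.5 CPM (median 7.99) in X, with an overlap (log2FC 2.06, SE 0.31, adjusted p = 0.000149). ENSOCUG00000014801 lay at 5.03 to 8.86 CPM (median 6.79) and 0.786 to 3.56 CPM (median 2.25), with none (log2FC 1.72, SE 0.22, adjusted p = 5.68e-05), and how reads were shared between these identifiers is uncertain. ACACA, which makes malonyl-CoA for fatty acid synthesis, measured 15.96 to 22.9 CPM (median 19.5) in WRR and 8.67 to 13.96 CPM (median 13.1) in X, with none either (log2FC 0.70, SE 0.11, adjusted p = 0.000257). FADS2, a fatty acid desaturase (log2FC 0.59, adjusted p = 0.00188), and ACLY (log2FC 0.50, adjusted p = 0.00606) were also higher, and GPAT4 was the single gene higher in X (log2FC -0.45, adjusted p = 0.00342). The list shares ADIPOQ, SCD, THRSP, LIPE, PLAAT3 and the untested HCAR1 with the adipocyte markers. In the fit of all 33 libraries 5 of its genes were called higher in WRR.

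Among 17 muscle regulators and growth factors, 5 were higher in WRR and 1 in X (median log2FC 0.23). The share higher in WRR was near the 25.4% of all genes with a symbol. CDON, a coreceptor of myogenic signaling, measured 7.42 to 12.1 CPM (median 8.92) in WRR and 2.08 to 5.79 CPM (median 4.16) in X (log2FC 1.25, SE 0.17, adjusted p = 6.74e-05). BOC, its partner, lay at 5.202 to 9.05 CPM (median 7.18) in WRR and 2.83 to 5.003 CPM (median 3.96) in X (log2FC 0.81, SE 0.12, adjusted p = 0.000138), and neither gene overlapped. IGF1R, the receptor for insulin-like growth factor 1, was without overlap too (log2FC 1.04, SE 0.13, adjusted p = 5.60e-05), and its ligand gene IGF1 was higher in WRR (log2FC 1.51, adjusted p = 0.00281). SRF, a transcription factor of actin genes, was tight in WRR at 37 to 42.3 CPM (median 39.8) and wide in X at 16.9 to 41.8 CPM (median 25.6), where rabbit 66 held the highest value (log2FC 0.56, SE 0.11, adjusted p = 0.0008803). MYF6, the myogenic factor of mature fibers, was the gene higher in X (log2FC -0.40, adjusted p = 0.0101). In the fit of all 33 libraries 3 genes of the list were called, all higher in WRR.

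Immediate early and acute response genes were called in both directions. X libraries alone would have carried 18 of the 20 tested past the filter, of which 6 were higher in WRR and 2 higher in X. Of 20 tested, 7 were higher in WRR, among them SPRY2 (log2FC 0.81, adjusted p = 0.000267), FOSL2 (log2FC 1.04, adjusted p = 0.00194), KLF4 (log2FC 0.79, adjusted p = 0.004395) and JUN (log2FC 0.56, adjusted p = 0.01895), and CREM (log2FC -0.45, adjusted p = 0.00512) and GADD45A (log2FC -0.56, adjusted p = 0.0216) were higher in X (median log2FC 0.09).

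In the other direction, the gene of lowest adjusted p over all genes tested was NACA (ENSOCUG00000002295), a chaperone of newly made proteins at the ribosome. It lay at 10.8 to 14.4 CPM (median 13.1) in the WRR libraries and at 23.3 to 28.4 CPM (median 25.6) in the X libraries. The highest WRR value was far below the lowest X value, and both series were tight (log2FC -0.98, SE 0.07, adjusted p = 9.74e-07). The gene was named after its value was seen, as were UBE2B, a ubiquitin-conjugating enzyme (log2FC -0.59, adjusted p = 0.000119), SKP1, a subunit of ubiquitin ligases (log2FC -0.56, adjusted p = 0.000149), and BZW2 (log2FC -0.58, adjusted p = 0.000223), which also did not overlap.

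Genes of the proteasome were higher in X throughout the list. All 14 subunits or regulators on it were higher in X (median log2FC -0.46), and for 9 of them the series did not overlap. Other proteasome genes were counted on the interferon list. Of these, PSME1 and PSME2 were higher in X, while PSMB8 (log2FC -0.03, adjusted p = 0.926) and PSMB9 (log2FC 0.07, adjusted p = 0.897) were not called. PSMB1, a subunit of the catalytic core, measured 79.8 to 94.7 CPM (median 89.9) in WRR and 109.6 to 134 CPM (median 120.3) in X (log2FC -0.45, SE 0.06, adjusted p = 6.37e-05). PSMD7, of the regulatory cap, lay at 92.2 to 119 CPM (median 110.4) in WRR and 136 to 193 CPM (median 156) in X (log2FC -0.54, SE 0.07, adjusted p = 6.89e-05). PSMA1 (log2FC -0.52, adjusted p = 0.000159) did not overlap, and PSMD13 (log2FC -0.47, adjusted p = 0.000116) overlapped only slightly. The summed level was 1066 to 1268 CPM in WRR and 1486 to 1823 CPM in X, without overlap, and 12 of the 14 were called in the fit of all 33 libraries. Among 19 chaperones 9 were higher in X and 0 higher in WRR (median log2FC -0.26), led by CCT7, a subunit of the chaperonin that folds actin (log2FC -0.40, adjusted p = 0.000187), PFDN6 of prefoldin (log2FC -0.43, adjusted p = 0.000454), AHSA1 (log2FC -0.32, adjusted p = 0.001904) and TCP1 (log2FC -0.26, adjusted p = 0.00212). HSPA8, the constitutive heat shock protein, was not called (log2FC -0.14, adjusted p = 0.139).

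Mitochondrial genes lay on the same side. Of 28 mitochondrial ribosome proteins 15 were higher in X and 0 in WRR (median log2FC -0.31). MRPL40 spanned 46.7 to 57.6 CPM (median 50.4) in WRR and 67.96 to 94.3 CPM (median 74.4) in X (log2FC -0.60, SE 0.07, adjusted p = 4.53e-05). MRPS22 was at 9.75 to 11.7 CPM (median 11.1) and 14.1 to 20.3 CPM (median 15.7) in the same order (log2FC -0.55, SE 0.08, adjusted p = 0.000132), and neither overlapped, nor did MRPL24 (log2FC -0.56, adjusted p = 6.37e-05) or MRPL11 (log2FC -0.67, adjusted p = 7.22e-05).

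In the respiratory chain and ATP synthase list 14 of 25 genes were higher in X and 1, MT-ND4L, in WRR (median log2FC -0.28). MT-ND4L, at 0 in 6 of 9 X libraries, passed the filter only with the help of WRR libraries, and its value is uncertain. COA6, an assembly factor of cytochrome c oxidase, lay at 7.83 to 10.4 CPM (median 8.85) in WRR and 12.98 to 17.5 CPM (median 15.4) in X (log2FC -0.77, SE 0.08, adjusted p = 1.60e-05). NDUFB4, a subunit of complex I, was at 30.1 to 41.1 CPM (median 33.6) and 42.9 to 64.5 CPM (median 55.5) (log2FC -0.67, SE 0.08, adjusted p = 3.02e-05). Both were without overlap, as was ATP5F1E of the ATP synthase (log2FC -0.55, adjusted p = 0.000499), whereas COX4I1 overlapped slightly (log2FC -0.49, adjusted p = 0.001496). UQCRC1, a core subunit of complex III, was not called (log2FC -0.01, adjusted p = 0.944).

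Of 20 genes of the TCA cycle and fatty acid oxidation 10 were higher in X (median log2FC -0.29). MCEE, which handles methylmalonyl-CoA (log2FC -0.70, adjusted p = 3.66e-05), SLC25A20, the carrier that brings acylcarnitines into mitochondria (log2FC -0.60, adjusted p = 0.000137), ACOT13 (log2FC -0.58, adjusted p = 0.00272) and HSD17B10 (log2FC -0.30, adjusted p = 0.00322) had the lowest adjusted p. OGDH, of the TCA cycle, was higher in WRR (log2FC 0.25, adjusted p = 0.0174), and IDH2 was not called (log2FC -0.11, adjusted p = 0.468). In the fit of all 33 libraries 4 of the 20 were called, all higher in X. In that fit 10 respiratory chain genes were higher in X and the uncertain MT-ND4L was higher in WRR, and 11 mitochondrial ribosome genes were called, all higher in X.

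Ribosomal, splicing and cell cycle genes gave smaller counts, to be set beside the 16.4% of all genes with a symbol called higher in X. Of 13 cytosolic ribosome proteins 4 were higher in X (median log2FC -0.28), and RPL24 showed no overlap, at 216 to 317 CPM (median 241) in WRR and 379 to 513 CPM (median 403) in X (log2FC -0.76, SE 0.08, adjusted p = 2.79e-05). RPL8 (log2FC -0.48, adjusted p = 0.000187) and RPL29 (log2FC -0.28, adjusted p = 0.00477) were called too. Genes of this family have many near-identical copies in the genome, and RSEM can divide their reads unequally, so their values are uncertain. For RPS6 and RPS18 the log2FC were 5.80 and -3.71 and neither was called. Of 18 splicing genes 4 were higher in X (median log2FC -0.08), with HNRNPDL first (log2FC -0.52, adjusted p = 6.85e-05). Of 16 cell cycle genes 4 were higher in X (median log2FC -0.28), namely RFC3 (log2FC -0.51, adjusted p = 0.00118), GMNN (log2FC -0.51, adjusted p = 0.00372), MCM7 (log2FC -0.37, adjusted p = 0.0109) and FEN1 (log2FC -0.29, adjusted p = 0.0424). FEN1 lost its call in 18 of 30 alternatives, and 2 cell cycle genes were called in the fit of all 33 libraries. TOP2A was under the filter, at no more than 1.13 CPM.

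Few genes with a symbol were DE and higher in X, 6 in all, and each of the 3 most counted overlapped between the series. S100A1, a calcium-binding protein of muscle, ran from 46.2 to 98.6 CPM (median 57.4) in WRR and from 41.3 to 351 CPM (median 149) in X. In X, rabbit 59 held the highest value and rabbit 66 the lowest (log2FC -1.15, SE 0.31, adjusted p = 0.0106). IRF7, a transcription factor of the interferon response, spanned 0.632 to 4.69 CPM (median 1.04) in WRR, where rabbit 5 alone was above 1.43 CPM, and 1.05 to 13.8 CPM (median 5.45) in X (log2FC -2.21, SE 0.45, adjusted p = 0.00158). PRIMPOL, a primase-polymerase, gave log2FC -1.18, SE 0.31, adjusted p = 0.00835.

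The interferon and antigen presentation list as a whole did not follow IRF7. Of 24 genes 3 were higher in X, 1 in WRR and 20 were not called (median log2FC -0.03). Beside IRF7, PSME2 (log2FC -0.48, adjusted p = 0.000563) and PSME1 (log2FC -0.55, adjusted p = 0.00591), subunits of a proteasome activator, were higher in X, and ZC3HAV1, an antiviral zinc finger protein, was higher in WRR (log2FC 0.69, adjusted p = 0.00608).

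The fiber genes themselves, by which the tissue was checked, were high in all controls. ATP2A1, the calcium pump of fast fibers, lay at 16420 to 27470 CPM (median 21780) in WRR and 5457 to 38110 CPM (median 14210) in X, and TNNT3, fast troponin T, at 5786 to 9707 CPM (median 7476) and 3078 to 19080 CPM (median 7131). The WRR values of both fell within the X range, whose highest values were in rabbit 66 and lowest in rabbit 59 (ATP2A1, log2FC 0.53, adjusted p = 0.143; TNNT3, log2FC -0.05, adjusted p = 0.889). Of 29 contractile and calcium-handling genes 3 were higher in WRR, 4 in X and 22 were not called (median log2FC -0.11). SMPX, a small stress-responsive muscle protein (log2FC -0.89, adjusted p = 0.00214), TRDN, triadin of the calcium release unit (log2FC -0.44, adjusted p = 0.00175), and PDLIM5 (log2FC -0.64, adjusted p = 0.00747) were higher in X, and VCL, vinculin, was higher in WRR (log2FC 0.31, adjusted p = 0.00486). The summed level of the list was 41750 to 58230 CPM in WRR and 30760 to 79010 CPM in X, rabbit 66 being the 79010 CPM. Without rabbit 66, 5 of these genes were higher in WRR and 5 in X, and in the fit of all 33 libraries 1 and 2.

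Glycolysis and glycogen genes were mostly not called, with 2 of 18 higher in WRR, 2 higher in X and a median log2FC of 0.17. UGP2 (log2FC -0.42, adjusted p = 0.00591) and PDK1 (log2FC -0.51, adjusted p = 0.0187) were higher in X, and PPP1R3A (log2FC 0.52, adjusted p = 0.0349) and PDP2 (log2FC 0.50, adjusted p = 0.0408) in WRR. PDP2 lost its call in 15 of 30 alternatives and PPP1R3A in 9, and in the fit of all 33 libraries 1 glycolysis gene was called, higher in X. Of 6 circadian clock genes 1, PER2, was called (log2FC -0.60, adjusted p = 0.0359), but not in edgeR or DESeq2 (log2FC -0.76 to -0.50, adjusted p 0.00312 to 0.104 over 30 alternatives). NR1D1, another clock gene, was not called (log2FC 0.50, adjusted p = 0.299).

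MT-ND4L, a mitochondrial gene of complex I, had the largest fitted difference among genes with a symbol, and its value is uncertain. The symbol belongs to 2 identifiers, ENSOCUG00000023301 and ENSOCUG00000025982, whose counts were identical in every control library. Each lay at 113 to 946 CPM (median 699) in WRR, while in X 6 of 9 libraries were at 0 and rabbits 59, 62 and 67 held 242.6 to 338.5 CPM. A gene listed at 0 beside such values can be a failed division of reads between copies, so no fold is given. edgeR did not call it (adjusted p = 0.122; 0.00028 to 0.122 over the alternatives).

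The repaired left shoulders of the same rabbits were compared by the same contrast, without the library of rabbit 3. Of the same 10804 genes 375 (3.47%) were called between 7 WRR and 9 X libraries, 176 higher in WRR and 199 higher in X. The count rests on single libraries: it was 0 in limma-voom when the left library of rabbit 3 was kept, 108 without that of rabbit 4 and 876 without that of rabbit 59. DESeq2 called 932. Of the 3472 genes called in unoperated muscle, 90.4% had the same sign in repaired muscle, as did 73.4% of all genes tested, and 312 were called in both, all 312 with the same sign. The left and right shoulders come from the same animals, so they are not independent of each other. The difference between the shoulders was not tested gene by gene. The median log2FC of the genes called higher in WRR was 0.61 in unoperated and 0.34 in repaired muscle, and that of the genes called higher in X was -0.42 and -0.28.

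NACA was called in repaired muscle as well, at 14.2 to 23.9 CPM (median 18.8) in WRR and 29.5 to 45.5 CPM (median 32.1) in X, again without overlap (log2FC -0.98, SE 0.12, adjusted p = 0.00296). SRF (log2FC 0.75, SE 0.12, adjusted p = 0.00862) and MRPS22 (log2FC -0.62, SE 0.13, adjusted p = 0.0198) were called in the same direction as in unoperated muscle. In MRPS22 the single X library inside the WRR range was that of rabbit 59, at 10.9 CPM. PSMB1 lay at 82.3 to 135 CPM (median 105) in WRR and 84.5 to 157 CPM (median 124) in X, where the ranges overlapped and it was not called (log2FC -0.22, SE 0.13, adjusted p = 0.373).

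The matrix and macrophage genes did not pass the test in repaired muscle. The repaired libraries varied more between animals, and the median log2FC was smaller than in unoperated muscle (1.08 for matrix and 1.47 for macrophage genes). Which of these goes with the lost calls was not tested. Of the 28 matrix genes 0 were called in limma-voom in repaired muscle (2 at an unadjusted p under 0.05), 0 in edgeR and 0 in DESeq2, and 27 had a positive log2FC (median 0.59). Among all genes with a symbol, 1657 of 3064 were positive in repaired muscle. The members of a list were measured in the same rabbits, so their signs are not independent. FN1 ran from 319.8 to 1383 CPM (median 408) in WRR and from 43.9 to 6583 CPM (median 269.7) in X, where rabbit 59 reached 6583 CPM and rabbit 64 only 43.9 CPM (log2FC 0.73, SE 0.92, adjusted p = 0.723). Of the 11 macrophage markers 0 were called in limma-voom (0 at an unadjusted p under 0.05), 0 in edgeR and 0 in DESeq2, and all 11 had a positive log2FC (median 1.01). MRC1 lay at 5.82 to 30.96 CPM (median 14.9) in WRR and 1.07 to 147 CPM (median 5.61) in X, with rabbit 59 again the highest (log2FC 0.91, SE 0.85, adjusted p = 0.618). DDR2 was also not called (log2FC 1.11, SE 0.54, adjusted p = 0.266). The proteasome median was -0.21 and that of the mitochondrial ribosome -0.19, with 0 (3 at an unadjusted p under 0.05, 0 called in edgeR and 0 in DESeq2) and 1 genes called in limma-voom.

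**Figure D5:**
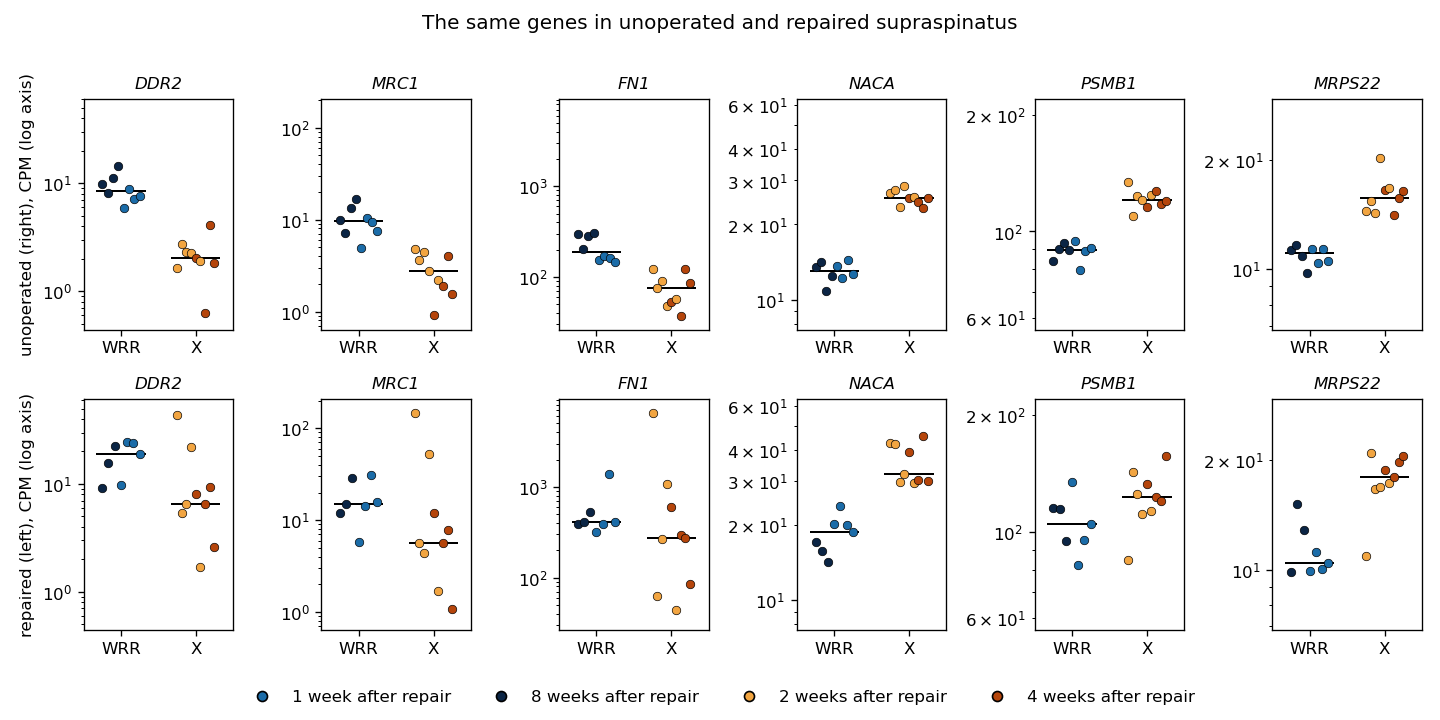
CPM (y axis, log scale) of 6 genes in unoperated right (upper row, 17 libraries) and repaired left (lower row, 16 libraries) supraspinatus by series, colored by weeks after repair; lines are medians and each gene has 1 scale in both rows. NACA stays without overlap on both sides, while DDR2, MRC1 and FN1 overlap in repaired muscle, where rabbit 59 is the highest X library.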

How the data were processed

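RNA of supraspinatus muscle was sequenced by the authors as stranded mRNA libraries. Reads were aligned with STAR to the rabbit genome (OryCun2.0) and quantified with RSEM, and the values deposited by the authors are RSEM expected counts for 23669 genes in 34 libraries, not scaled. FastQC, RSEM, edgeR and limma are named in the submitters' processing notes. The table has 0 unused columns, and 8.14% of control values are not whole. RSEM divides reads shared by near-identical genes, which makes such genes uncertain.

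The 17 control libraries were restricted to genes with CPM over 1 in at least 5 of them, TMM factors were computed, and limma-voom was run with a coefficient for each time point (R 4.3.3 with limma 3.58.1 and edgeR 4.0.16). The series difference is the mean of 1 and 8 weeks minus the mean of 2 and 4 weeks. p-values were adjusted by the Benjamini-Hochberg method over all genes tested. Counts were rounded for edgeR quasi-likelihood and DESeq2 1.42.0. Library-level values were compared by exact two-sided permutation tests over all divisions into 8 and 9. The repaired side was fitted alike without the left library of rabbit 3, since the methods state that 1 repaired library of 8 weeks was left out and an earlier examination of these data identified it. The fit was tested on simulated counts. Alternatives were other tools, scalings and filters, thinned WRR libraries, quality weights, all 33 libraries with and without a correlation within rabbit, and leaving out each library in turn. The sets without rabbits 4 and 66 and without rabbits 59 and 66 were chosen after seeing the data. The fold changes depend on TMM, which takes most genes as equal between libraries: the median log2FC of all genes was 0.00. Depth limits precision most in X.

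Symbols of human orthologs came from 2 supplementary tables that were held in part (3310 genes, with 347 of 347 agreeing where both give one). They cover 28.4% of the genes tested. The members and gene lists were chosen with earlier results of these data known. Genes were named by rule: the 10 largest DE differences in each direction among genes that have a symbol, average 1 or more on the log2 CPM scale and do not overlap, the 3 most counted DE genes in each direction, and up to 4 called members of each list with the lowest adjusted p. Other list members and genes described were chosen after their values were seen. Values are CPM with TMM-scaled library sizes and are not scaled by gene length, so levels are compared only between libraries, not between genes.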

Additional observations from a re-analysis of the deposited data

Results flagged for a closer look

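Within the 8 WRR and the 9 X controls, 240 sets of values were examined for a library that stands apart from the rest by Dixon's 95% criterion, and 21 were marked. Chance marks about 1 set in 20.

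The control of rabbit 4 (WRR, 8 weeks) was the highest of its series, apart from the others, for COL12A1 (69.55 CPM, next 32.6), EMP1 (18.05 CPM, next 9.73), RELN (5.263 CPM, next 3.05), THBS4 (133.8 CPM, next 39.1) and THY1 (28.85 CPM, next 15.7). It also had the most genes over 1 CPM, 10797, the next library having 10557. COL3A1 was highest in rabbit 3 (1496 CPM, next 848).

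The control of rabbit 66 (X, 4 weeks) stood apart in its median correlation with the other controls (0.9228, next 0.9417), on the second principal component (-75.88), in SRSF4 (38.25 CPM, the highest of X) and in CHRDL1 (1.459 CPM, the lowest of X). Rabbit 67 was the lowest of X for GMNN (4.451 CPM) and the highest for THY1 (8.145 CPM). Rabbit 63 was the highest of X for MMRN1 (3.624 CPM) and VWF (132.8 CPM).

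The remaining values were single libraries. In WRR these were IRF7 in rabbit 5 (4.688 CPM, next 1.43), PDLIM5 and RPL24 in rabbit 8 (299.2 and 317.4 CPM) and VWF in rabbit 6 (174.8 CPM). In X they were MRPS22 in rabbit 62 (20.28 CPM) and SPRY2 in rabbit 68 (7.144 CPM).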

How the results depend on the processing

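No paired analysis was possible because the rabbits of the series carry different numbers, so the controls compared share no replicate number. Each of 114 named genes was recomputed under its alternatives: 71 were called under every one, 32 lost the call only in the fits of all 33 libraries, 11 lost it elsewhere, and 0 changed sign. In the fits of all 33 libraries, without and with a correlation within rabbit (0.193), the called genes numbered 2155 and 2137, those higher in WRR 1005 and 993, the DE genes 219 and 217, and the DE genes higher in WRR 174 and 173. With no filter 16844 genes were tested, of which 2991 were called higher in X and 1264 were DE (602 higher in WRR, 662 in X), and the share of calls higher in WRR was 41.6% against 51.2%. DE genes higher in X numbered 86 in edgeR, 93 in DESeq2, 108 without rabbits 4 and 66 and 87 without rabbits 59 and 66. Leaving out single controls gave 3007 to 3674 called genes, 1550 to 1828 higher in WRR and 1411 to 1846 higher in X, with 356 to 429 DE, 301 to 370 higher in WRR and 49 to 108 higher in X (108 without rabbit 66). Within the series DESeq2 called 13 genes at 8 against 1 week and 18 at 4 against 2 weeks, and leaving out a library gave 0 to 1 in each (1 without rabbit 2 and 1 without rabbit 64). In repaired muscle the 375 called genes became 932 in DESeq2, 199 with CPM over 1 in at least 1 library, 0 with all 17 libraries (limma-voom) and 1773 with quality weights, and 108 to 876 with a library left out. It moved by more than 1.5 times without the left library of rabbit 2 (153), 4 (108), 5 (218), 7 (169), 8 (156), 59 (876), 61 (242), 63 (199), 66 (192), 67 (217) or 68 (229). The number of genes over 5 CPM did not pass the test (189.9 more in WRR, exact permutation test, p = 0.0622). The cause of these moves was not tested. The X libraries hold 9859418 to 11092142 counts, and low genes are least precise there.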
